A study of Mus musculus with 6 samples.

Results

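The promoters of 9 genes whose products shape chromatin loops were examined in a T cell and a B cell progenitor line of the mouse: Ctcf, Yy1, Smc3, Rad21, Stag1, Nipbl, Wapl, Ldb1 and Med1. They were chosen by name for their roles, as 9 of the 21951 protein-coding genes of the annotation. The mark was trimethylation of histone H3 at lysine 4 (H3K4me3), which sits around the transcription start sites (TSSs) of active genes, measured by chromatin immunoprecipitation and sequencing (ChIP-seq). Scid.adh.2C2 is a subclone of a line from a spontaneous thymic lymphoma of a mouse with the Prkdc scid mutation (CB17-Prkdc<scid>), and 230-238 is a progenitor B cell line transformed with Abelson virus. Each line gave 2 H3K4me3 ChIP libraries and 1 input library without antibody, and the labels give no treatment. Both are transformed lines grown in culture, so that a difference between them may belong to the line and not to the lineage, which cannot be told apart here.

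Chromatin loops in mammalian cells arise largely when the ring-shaped cohesin complex, with SMC3, RAD21 and a STAG protein among its subunits, extrudes DNA. NIPBL loads cohesin and stimulates extrusion, WAPL releases it, and CTCF bound to DNA halts it. YY1 and LDB1 bring enhancers and promoters together by pairing with themselves, and MED1 is a subunit of Mediator, which joins transcription factors to RNA polymerase II. In lymphocyte progenitors, such loops also bring distant segments of the antigen receptor genes together.

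Each line had 1 deposited peak list made from both ChIP libraries, with 15513 peaks in Scid.adh.2C2 and 19604 in 230-238. A list gives for every peak its edges, its summit and its fold enrichment over background at the summit, but no value per replicate and no read depth. No spread between replicates could therefore be given and no difference between the lines could be tested. Fold enrichment was read only within a list, since its range differed between the lists (2.08 to 56.6 in Scid.adh.2C2 and 2.14 to 42.1 in 230-238). The lines were set side by side through percentiles, that is, the share of the marked protein-coding genes of the same line with a lower value. The markers fitted the labels: 8 of 8 T lineage genes had a promoter peak in Scid.adh.2C2 and 2 of 8 (Cd3d, Tcf7) in 230-238, whereas 8 of 8 B lineage genes had one in 230-238 and 1 of 8 (Vpreb1) in Scid.adh.2C2. Of 5 myeloid markers, Cebpe had a promoter peak in both lines and the other 4 had none.

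All 9 looping factor genes carried H3K4me3 at a promoter in both lines. A gene was counted as marked when a peak reached within 2500 bp of any of its annotated TSSs. Among all protein-coding genes, 45.5% were marked in Scid.adh.2C2, 48.2% in 230-238, 42.2% in both lines and 9.24% in 1 line only. The highest fold enrichment at a promoter ranged over the 9 genes from 20.7 (Med1) to 39.1 (Smc3) in Scid.adh.2C2 and from 14.9 (Yy1) to 29.5 (Stag1) in 230-238. The median of the 9 genes was 28.6 in Scid.adh.2C2, beside 27.1 over all marked genes, and 25.6 in 230-238, beside 21.7. Ordered by fold enrichment in Scid.adh.2C2, Smc3 was followed by Wapl, Ldb1, Ctcf, Stag1, Rad21, Nipbl, Yy1 and Med1. In 230-238, the order was Stag1, Smc3, Ldb1, Med1, Nipbl, Ctcf, Wapl, Rad21 and Yy1. Without replicate values, it cannot be said which neighbours in these orders differ beyond their spread.

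**Figure D1:**
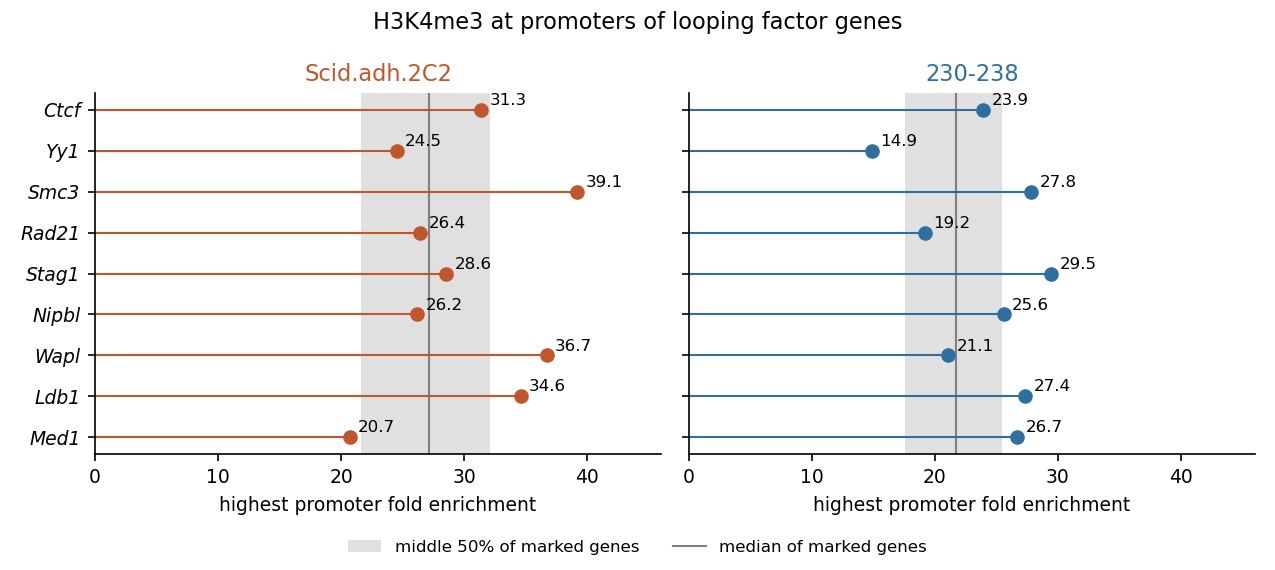
Highest fold enrichment of H3K4me3 at the promoters of the 9 genes (points, x axis) in Scid.adh.2C2 (left) and 230-238 (right), with the median (line) and the middle 50% (grey band) of all marked protein-coding genes of the same line. Smc3 stood highest in Scid.adh.2C2 at 39.1 and Stag1 in 230-238 at 29.5, and the scales of the panels are not comparable between the lines.

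Ctcf (ENSMUSG00000005698) encodes the zinc finger protein that halts cohesin and marks loop ends. Its main TSS lies at position 105636579 of chromosome 8, on the plus strand (GRCm38, the build of all coordinates here). In Scid.adh.2C2, 1 peak of 3617 bp covered the promoter with 31.3-fold enrichment, at percentile 71.7, and its summit lay 689 bp upstream of the main TSS. In 230-238, the same region held 2 peaks. The upstream peak had 19.8-fold enrichment and a summit 697 bp upstream of the TSS, next to the summit of Scid.adh.2C2, whereas the downstream peak had 23.9-fold enrichment and a summit 1187 bp into the gene, at percentile 65.0. The region without a peak in 230-238 was 193 bp long and ended 89 bp before the main TSS. It overlaps no annotated exon, and its sequence is given because this stretch is marked in one line and lies between peaks in the other. In this and the sequences that follow, capitals mark matches on either strand to short motifs: CCAAT (the CCAAT box), GGGCGG (the GC box), CCGGAA (ETS proteins), GCCATNTT (YY1), GCGCNTGCG (NRF1) and AGGNGGC (part of the CTCF motif). A match describes letters only and is no sign of binding, and matches to GGGCGG and AGGNGGC can overlap.
Ctcf between the peaks of 230-238, chr8:105636298-105636490, plus strand: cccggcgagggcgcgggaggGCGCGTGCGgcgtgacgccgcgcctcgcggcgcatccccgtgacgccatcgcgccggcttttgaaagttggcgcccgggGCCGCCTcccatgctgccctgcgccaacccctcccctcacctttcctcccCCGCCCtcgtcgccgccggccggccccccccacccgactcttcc
These 193 bases contain 30 CpG dinucleotides and 1 match each to the GC box, the NRF1 and the CTCF motif. The promoter windows of Agrp, which encodes a neuropeptide, and of the non-coding gene Gm5914 also reach all of the Ctcf peaks. That of Gm38384, a gene of unknown coding potential, reaches the peak of Scid.adh.2C2 and the upstream peak of 230-238. The mark can therefore not be assigned to Ctcf alone.

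Yy1 (ENSMUSG00000021264, chromosome 12, main TSS 108792973, plus strand) encodes a zinc finger protein found at enhancers and promoters. It had the lowest fold enrichment of the 9 genes in 230-238 and the next to lowest in Scid.adh.2C2. In Scid.adh.2C2, the promoter carried 2 peaks, an upstream one with 24.5-fold enrichment and a downstream one with 20.3-fold enrichment. The corresponding peaks in 230-238 had 13.5-fold and 14.9-fold enrichment. By the higher peak, Yy1 stood at percentile 37.1 in Scid.adh.2C2 and at 14.1 in 230-238. The downstream peaks were nearly alike in position, sharing 96.7% of their joint length with summits 47 bp apart, and reached over 3 kb into the gene. The upstream peak was 2306 bp wide in Scid.adh.2C2 and 1430 bp in 230-238, and the summits were 557 bp apart. The stretch between the peaks was 220 bp long in Scid.adh.2C2 and 295 bp in 230-238, where it also included the main TSS. The 220 bases lie upstream of the first exon of Yy1, and 20 of them are in the exon of Gm34220, a gene of unknown coding potential on the opposite strand whose promoter window also reaches both peaks.
Yy1 between the peaks of Scid.adh.2C2, chr12:108792724-108792943, plus strand: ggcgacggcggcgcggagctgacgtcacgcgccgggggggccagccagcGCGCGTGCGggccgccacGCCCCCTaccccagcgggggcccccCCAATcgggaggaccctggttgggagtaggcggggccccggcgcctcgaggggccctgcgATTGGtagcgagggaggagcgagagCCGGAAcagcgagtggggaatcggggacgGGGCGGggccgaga
They contain 30 CpG dinucleotides, 2 matches to the CCAAT box and 1 match each to the GC box, the ETS, the NRF1 and the CTCF motif.

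The 3 genes for subunits of the cohesin ring differed in height and in shape. Smc3 (ENSMUSG00000024974, chromosome 19, main TSS 53600398, plus strand), which encodes an arm of the ring, had 1 peak of high fold enrichment. It reached 39.1-fold in Scid.adh.2C2 and 27.8-fold in 230-238, at percentiles 95.3 and 86.7, with summits 120 bp and 145 bp into the gene. The peak was 1737 bp wide in Scid.adh.2C2 and 2372 bp in 230-238, at width percentiles 29.4 and 50.7, and the added length lay inside the gene, where the edges differed by 671 bp against 36 bp upstream. The promoter window of AC137853.1, a gene of unknown coding potential, overlaps the same peaks.

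Rad21 (ENSMUSG00000022314, chromosome 15, main TSS 51991747, minus strand) encodes the subunit that closes the ring. Its promoter carried 3 peaks in each line. Between the lines, the upstream peaks shared 92.3% of their joint length, the middle ones 97.8% and the downstream ones 70.7%. In Scid.adh.2C2, their fold enrichment in the direction of transcription was 16.3, 26.4 and 9.13, and in 230-238 it was 15.7, 19.2 and 9.47. The middle peak, over the main TSS, was the highest in both lines. It was 1676 bp wide in Scid.adh.2C2 and 1713 bp in 230-238, with summits 5 bp apart. Between the upstream and the middle peak, 132 bp were free of a peak in Scid.adh.2C2 and 113 bp in 230-238, ending 49 bp and 70 bp before the TSS. Between the middle and the downstream peak, the lengths were 114 bp and 134 bp. The downstream peak, 871 bp wide in Scid.adh.2C2 and 616 bp in 230-238, was the lowest of the promoter peaks of the 9 genes in both lines, and in 230-238 it was the only one with an irreproducible discovery rate (IDR) score under the maximum of 1000, at 976. Its near edge, 1742 bp and 1778 bp downstream of the main TSS, was the farthest from a TSS among the promoter peaks of the 9 genes.

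Stag1 (ENSMUSG00000037286, chromosome 9, main TSS 100643448, plus strand) encodes a subunit that joins the ring to chromatin and CTCF. Its main TSS lay between 2 peaks in both lines. In Scid.adh.2C2, the upstream peak had 24.7-fold and the downstream peak 28.6-fold enrichment. In 230-238, the values were 20.3 and 29.5. The downstream peak put Stag1 at percentile 57.3 in Scid.adh.2C2 and at 92.6 in 230-238, the highest of the 9 genes there. The summits of the downstream peaks were 11 bp apart, but the peak was 1710 bp wide in Scid.adh.2C2 and 2835 bp in 230-238, 1.66 times as wide. The stretch without a peak was 193 bp long in Scid.adh.2C2 and 205 bp in 230-238. Its part upstream of the main TSS, 148 bp in Scid.adh.2C2, overlaps no exon.
Stag1 between the peaks of Scid.adh.2C2, chr9:100643300-100643447, plus strand: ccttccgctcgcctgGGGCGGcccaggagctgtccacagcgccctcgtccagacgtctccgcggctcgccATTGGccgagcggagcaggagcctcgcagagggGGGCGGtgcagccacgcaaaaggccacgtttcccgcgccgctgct
It contains 18 CpG dinucleotides, 1 match to the CCAAT box and 2 to the GC box. Stag1 has 14 annotated TSSs, of which 7 had a peak within the window in both lines. The most upstream one, 45650 bp before the main TSS, had none, and with that TSS alone Stag1 would not be counted as marked. Stag1 was also the only one of the 9 genes with peaks inside the gene outside the promoter windows, and only in the list of 230-238. They had 13.8-fold enrichment 14543 bp and 7.56-fold enrichment 308137 bp downstream of the main TSS. The second lies near another annotated TSS of Stag1, 312321 bp downstream of the main one. With a window of 5000 bp it counted as a promoter peak.

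The genes for the loader and the release factor of cohesin each had 1 promoter peak in both lines. Nipbl (ENSMUSG00000022141, chromosome 15, main TSS 8444463, minus strand) had the widest promoter peak of the 9 genes in Scid.adh.2C2, with 6404 bp, and 6576 bp in 230-238. Its width was at percentile 99.6 in Scid.adh.2C2 and at 98.8 in 230-238, and 93.2% of the joint length was shared. Its fold enrichment was 26.2 in Scid.adh.2C2, at percentile 45.2, and 25.6 in 230-238, at 75.5. The summit lay 114 bp into the gene in Scid.adh.2C2 and 928 bp in 230-238. Wapl (ENSMUSG00000041408, chromosome 14, main TSS 34673928, plus strand) stood higher in Scid.adh.2C2. It had 36.7-fold enrichment in Scid.adh.2C2, at percentile 90.7, and 21.1-fold in 230-238, at 46.1. The edges of its peak were similar, with widths of 3138 bp and 3342 bp and 93.9% of the joint length shared. The summit was 306 bp upstream of the TSS in Scid.adh.2C2, toward the divergent non-coding RNA gene 5830448L01Rik whose window shares the peak, and 1075 bp inside Wapl in 230-238.

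**Figure D2:**
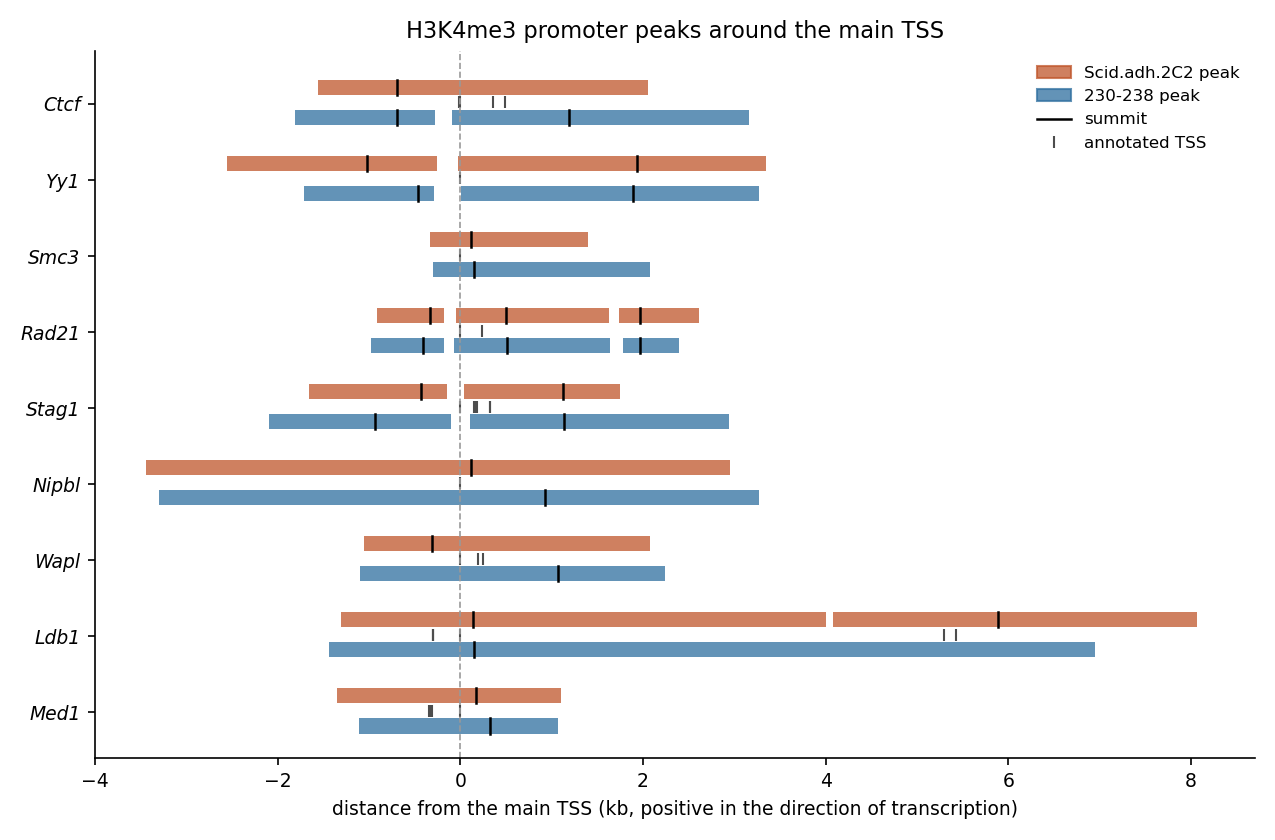
Promoter peaks of the 9 genes in Scid.adh.2C2 (upper bars) and 230-238 (lower bars), with the distance from the main TSS in kb on the x axis, summits as black lines and annotated TSSs as grey ticks. Rad21 had 3 peaks in both lines, Stag1 and Yy1 had 2, Ctcf had 2 in 230-238 only and Ldb1 had 2 in Scid.adh.2C2 only.

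Ldb1 (ENSMUSG00000025223, chromosome 19, main TSS 46044914, minus strand) encodes an adaptor without DNA binding of its own, which LIM domain proteins recruit. Its TSSs include a group around the main one and another inside the gene, and the lines differed in which group held the highest summit. In Scid.adh.2C2, a peak of 5315 bp over the main TSS had 16.2-fold enrichment with its summit 141 bp into the gene, and a separate peak of 3981 bp had 34.6-fold enrichment 5887 bp into the gene. The second peak lies by the internal TSSs, 5293 bp and 5433 bp downstream of the main one, and only 78 bp separated it from the first. In 230-238, a single peak of 8395 bp spanned both regions, and its summit of 27.4-fold enrichment was 146 bp into the gene, 5 bp from the weaker summit of Scid.adh.2C2. A single peak has 1 summit, so that the list of 230-238 gives no fold enrichment at the internal TSSs. By their highest peaks, the percentiles were 84.8 in Scid.adh.2C2 and 84.5 in 230-238 although the summits lay at different promoters. With only the most upstream TSS of every gene, Ldb1 had 16.2-fold enrichment in Scid.adh.2C2, at percentile 9.75, and 27.4-fold in 230-238, at percentile 84.8, a difference of 75 percentage points. The widest peak was 1.58 times as wide in 230-238, whereas the summed width of all promoter peaks was 0.903 times that of Scid.adh.2C2. The peak over the main TSS also reaches the promoter window of Pprc1, which encodes a coactivator of genes for mitochondrial function. RefSeq gives 3 starts for Ldb1. The 150 bases before the most upstream start and the first internal one are given, since the summits of the lines lay by these. The third start, at 46037070, lies inside the internal peak of Scid.adh.2C2 and outside the peak of 230-238.
Ldb1 upstream promoter, chr19:46045312-46045461, minus strand: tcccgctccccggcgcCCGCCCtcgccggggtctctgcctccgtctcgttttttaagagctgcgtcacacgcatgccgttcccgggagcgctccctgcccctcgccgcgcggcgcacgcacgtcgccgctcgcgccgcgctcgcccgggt
Ldb1 first internal promoter, chr19:46039622-46039771, minus strand: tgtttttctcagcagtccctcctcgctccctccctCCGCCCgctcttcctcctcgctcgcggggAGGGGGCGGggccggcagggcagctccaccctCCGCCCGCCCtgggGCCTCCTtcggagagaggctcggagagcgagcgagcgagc
Neither stretch overlaps an annotated exon. The upstream promoter contains 28 CpG dinucleotides and 1 match to the GC box, and the first internal one 15 CpG dinucleotides, 4 matches to the GC box and 2 to the CTCF motif.

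Med1 (ENSMUSG00000018160, chromosome 11, main TSS 98192955, minus strand) encodes the Mediator subunit that nuclear receptors and other activators contact. Its single peak differed little in position between the lines, with 88.7% of the joint length shared and summits 169 bp and 325 bp into the gene. The peak was 2454 bp wide in Scid.adh.2C2 and 2177 bp in 230-238. By the highest peak at any TSS, its place within the lists differed more than that of any other of the 9 genes: 20.7-fold enrichment in Scid.adh.2C2 was at percentile 21.1 and 26.7-fold in 230-238 at 81.5, a difference of 60.3 percentage points.

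Across the 9 genes, the percentile of fold enrichment was at least 20 points higher in 230-238 for Med1, Stag1 and Nipbl and at least 20 points higher in Scid.adh.2C2 for Wapl and Yy1. Among all genes marked in both lines, 26.6% were at least 20 points higher in 230-238 and 25.4% in Scid.adh.2C2. The median absolute difference was 23.0 points for the 9 genes and 21.3 for all genes marked in both lines. By the highest peak at any TSS, the smallest difference among the 9 genes was that of Ldb1, at 0.268 points, and the largest that of Med1. With only the most upstream TSS, where Stag1 had no peak, the difference of Ldb1 was the largest at 75 points, followed by Med1 at 60.9, and the smallest was that of Ctcf at 6.75.

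**Figure D3:**
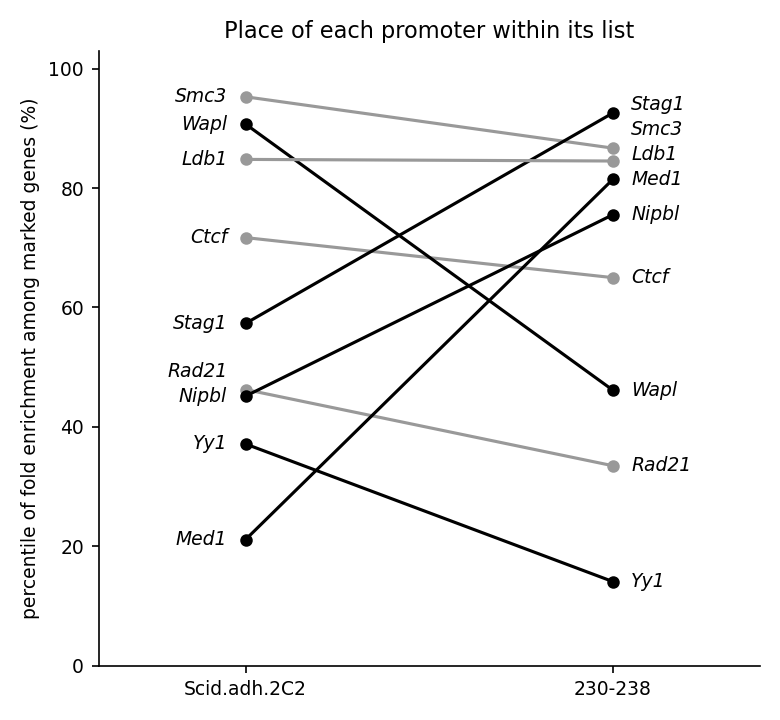
Percentile of the highest promoter fold enrichment among all marked protein-coding genes (y axis, in %) for each of the 9 genes in Scid.adh.2C2 and 230-238, joined by a line that is black where the difference was at least 20 points. Med1, Stag1 and Nipbl stood higher in 230-238, Wapl and Yy1 in Scid.adh.2C2.

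The widest promoter peak had a median of 3138 bp over the 9 genes in Scid.adh.2C2, beside 2134 bp over all marked genes, and of 3254 bp in 230-238, beside 2351 bp. Nipbl and Ldb1 were the widest, both above the 98th percentile in both lines. At the other end, Rad21, with 1676 bp and 1713 bp, was at percentile 26.5 in Scid.adh.2C2 and at 22.4 in 230-238. The widest peak was wider in 230-238 for 6 of the 9 genes and in Scid.adh.2C2 for Ctcf, Yy1 and Med1, and 70.1% of all genes marked in both lines had the wider peak in 230-238. A ratio of at least 1.5 was found in 230-238 for Stag1 and Ldb1, beside 16.3% of all genes, and in Scid.adh.2C2 for none of the 9, beside 5.95%. With the widths of all promoter peaks of a gene added up, 4 of the 9 genes were wider in Scid.adh.2C2, namely Yy1, Rad21, Ldb1 and Med1, and Ctcf turned to 230-238. No share over all genes was computed for added widths, and the 70.1% holds for the widest peak only. Whether this count is usual among marked genes can therefore not be said.

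**Figure D4:**
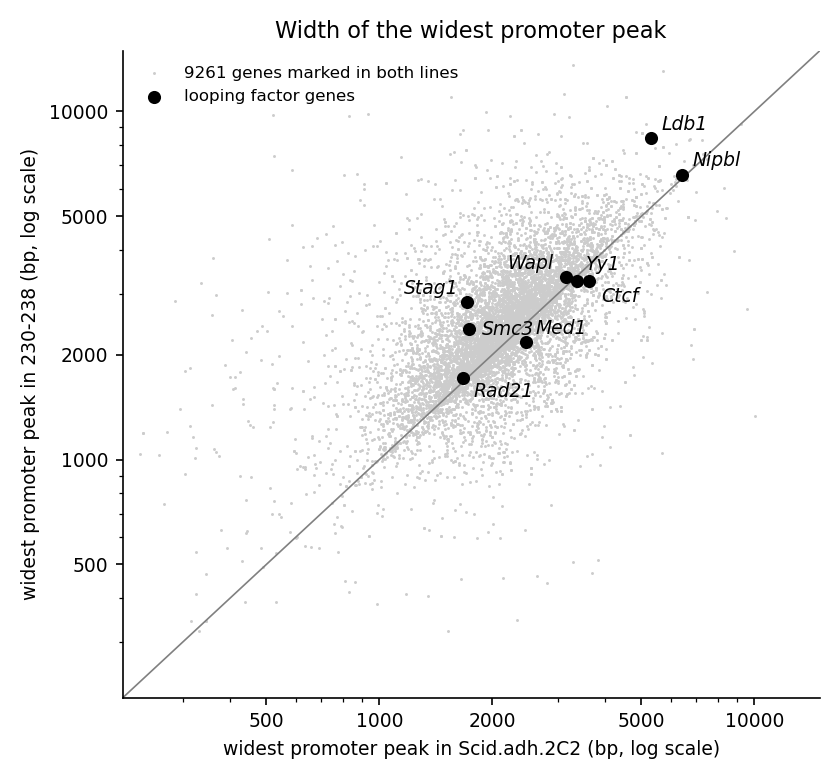
Width in bp of the widest promoter peak in Scid.adh.2C2 (x axis) and 230-238 (y axis), both on log scales, for the 9261 genes marked in both lines (grey) and the 9 looping factor genes (black), with the line of equal width. Nipbl and Ldb1 lie at the wide end, and Stag1 and Ldb1 lie farthest above the line among the 9 genes.

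More than 1 promoter peak was present for 4 of the 9 genes in each line, beside 25.8% of the marked genes in Scid.adh.2C2 and 33.2% in 230-238. Yy1, Rad21 and Stag1 were split in both lines, Ldb1 in Scid.adh.2C2 and Ctcf in 230-238. The main TSS lay outside every peak for Stag1 in Scid.adh.2C2, beside 14.4% of marked genes, and for Stag1 and Yy1 in 230-238, beside 17.4%. A stretch of at most 300 bp between neighbouring peaks that came within 300 bp of the main TSS was present for Yy1, Rad21 and Stag1 in Scid.adh.2C2 and for these and Ctcf in 230-238. This pattern, whose limits were set after these stretches had been seen, was found in 11% of marked genes in Scid.adh.2C2, in 15.2% in 230-238 and in both lines in 7.95% of the genes marked in both, where the count among the 9 was 3. Each promoter peak of Scid.adh.2C2 was paired with the 1 peak of 230-238 that overlapped it most, which gave 14 pairs at the 9 genes. The summits of the pairs differed by a median of 117 bp, beside 60 bp for 9674 pairs at all protein-coding genes. This rule paired the Ctcf peak with the downstream peak of 230-238, 1876 bp away by summit, and left out the upstream one, whose summit was closer. It also used the single Ldb1 peak of 230-238 for both Ldb1 peaks of Scid.adh.2C2. The shared length was a median of 72.9% of the joint length, beside 78.8%.

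Most of the promoters whose sequence was at hand held more CpG dinucleotides than the median promoter of a marked gene. RefSeq promoter sequences of GRCm38, which run from 250 bases before a start to 50 after it, covered 7 of the 9 genes, namely Ctcf, Yy1, Smc3, Stag1, Wapl, Ldb1 and Med1. That of Yy1 lies inside the first exon of the GENCODE annotation, since its RefSeq start is farther downstream. Taking the most upstream sequence of each, the number of CpG dinucleotides in 300 bases ranged from 22 (Med1) to 47 (Ctcf) with a median of 41. The median was 7 over all 32817 promoter sequences and 21 over the 9336 of genes marked in both lines. Both sets, also used for the motif shares below, include every RefSeq start of a gene, internal ones too. For the 7 genes only the most upstream start was taken, so that the values beside each other come from unlike sets. The motifs were chosen after sequences of these genes had been seen, so that their counts are no test of enrichment. The GC box was found in 7 of the 7 sequences, beside 35.6% of all promoters and 64.7% of those of marked genes. The YY1 motif was found in 3 (Ctcf, Smc3 and Stag1), beside 6.04% and 9.76%, and the NRF1 motif in 3 (Ctcf, Stag1 and Wapl), beside 6.30% and 15.5%. The CCAAT box was present in 4, beside 37.4% and 38.7%, the CTCF motif in 4, beside 29.3% and 40.2%, and the ETS motif in 1, beside 14.9% and 31.6%. The upstream promoter of Ldb1 had 41 CpG dinucleotides in 300 bases and the internal ones 23 and 5.

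The genes of the surrounding complexes were mostly marked in both lines as well. Of 74 such genes in 6 lists, 60 were marked in both lines, 2 in 230-238 only and 12 in neither. Over all protein-coding genes, 42.2% were marked in both lines and 9.24% in 1 line only. All 12 further cohesin subunits and regulators were marked in both lines, among them Smc1a, the partner of SMC3 in the ring, which had the highest fold enrichment of its list in both lines (37.9 in Scid.adh.2C2 and 27.5 in 230-238). None of the 4 germline subunits Smc1b, Rec8, Rad21l and Stag3, which replace their counterparts in meiosis, was marked in either line, and the peak nearest to their TSSs lay between 9.53 kb and 71.1 kb away.

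Of the architectural zinc finger genes, Zfp143, Maz and Patz1 were marked in both lines and Ctcfl, Vezf1, Yy2 and Zfp42 in neither. Maz had 44.1-fold enrichment in Scid.adh.2C2 and Patz1 26.1-fold in 230-238, the highest of the list in each line. Ctcfl, the germline paralog of Ctcf, had its nearest peak 23.9 kb away in Scid.adh.2C2 and 29.9 kb in 230-238. For Vezf1, a broadly expressed zinc finger gene, these distances were 80.1 kb and 79.9 kb. The lists as analysed here may lack rows, so that no peak at Vezf1, or at any other of the genes marked in neither line, is not evidence that the mark was absent.

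The partners of LDB1 were the only list with genes marked in 1 line. Lmo2, which encodes the LIM adaptor through which LDB1 joins blood cell factors, had a promoter peak with 22.0-fold enrichment in 230-238, and its nearest peak in Scid.adh.2C2 was 12 kb from a TSS. Lyl1, which encodes a helix-loop-helix factor of the same complexes, had 27.7-fold enrichment in 230-238 and its nearest peak in Scid.adh.2C2 was 10.9 kb away. Since the lists may lack rows, this is no evidence that the mark was absent from Lmo2 and Lyl1 in Scid.adh.2C2. Tal1, a relative of Lyl1, was marked in neither, but a peak with 25.4-fold enrichment lay 2.69 kb from a TSS in 230-238, just outside the window. Ssbp2, Ssbp3, Ssbp4 and Lmo4 were marked in both lines and Ldb2 and Lmo1 in neither. The highest of the list were Ssbp4 in Scid.adh.2C2 (35.6-fold) and Lmo4 in 230-238 (28.6-fold).

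Of 32 further genes of Mediator and its kinase module, 31 were marked in both lines and Med12l in neither. Med10 was the highest in Scid.adh.2C2 with 42.6-fold and Med11 in 230-238 with 29.6-fold enrichment. The medians of this list, 28.6 in Scid.adh.2C2 and 21.9 in 230-238, stood beside 20.7 and 26.7 for Med1. All 10 genes of condensin and the SMC5/6 complex were marked in both lines, with Smc5 the highest in Scid.adh.2C2 (40.8-fold) and Smc2 in 230-238 (33.9-fold).

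**Figure D5:**
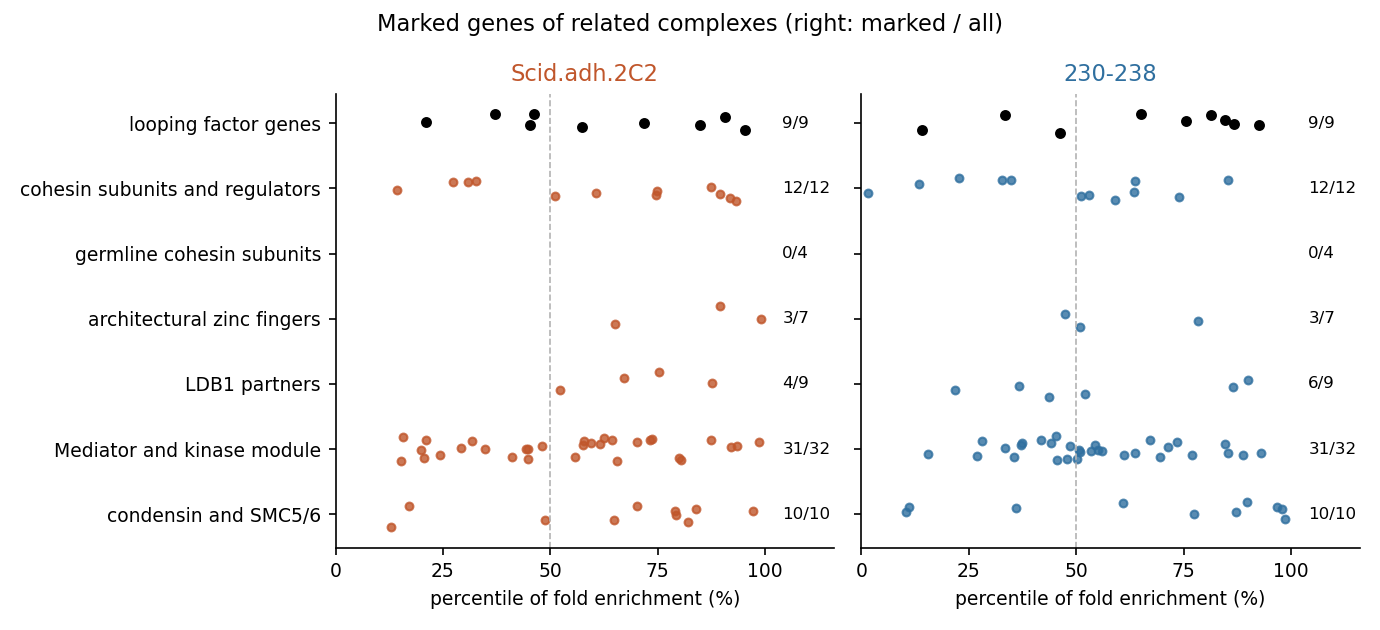
Percentile of the highest promoter fold enrichment (x axis, in %) of the marked genes among the 9 looping factor genes (black) and the 6 related lists (coloured) in Scid.adh.2C2 (left) and 230-238 (right), with the number marked of all genes of the list at the right edge and a dashed line at 50%. The germline cohesin subunits have no point in either line, whereas the 31 marked genes of Mediator run from percentile 15.3 to 98.5 in Scid.adh.2C2 and from 15.5 to 93.1 in 230-238.

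The protein-coding genes nearest to the median pattern of the 9 genes were Mef2a, Thap11, Purg, Wrn and Ecpas. Nearness was the Euclidean distance over 4 percentiles, those of fold enrichment and of width in both lines, and the distances ran from 6.0 to 6.76 percentage points. Purg and Wrn share a promoter peak and so have the same values.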

How the data were processed

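H3K4me3 ChIP-seq of Scid.adh.2C2 and 230-238 cells was analysed, with 2 ChIP libraries and 1 input library per line, grouped by the sample labels. The authors trimmed the reads (Trim Galore 0.6.7), mapped them to mm10 (GRCm38) with Bowtie2 2.4.4, called narrow peaks with MACS2 2.2.7.1 against the input at a q-value of 0.05 and kept the optimal set at an IDR threshold of 0.05. The deposited lists hold an IDR score, the fold enrichment as a linear ratio over background and −log10 p-values for each peak, which are the authors' values and were used without change. Because a list combines both replicates, it carries no replicate spread and no read depth, no test was run, and a promoter without a peak is only one with no peak in the lists as analysed here. Where close peaks are joined or split depends on the peak caller and on depth.

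TSSs were taken from GENCODE M21 (GRCm38). A gene was marked when a peak came within 2500 bp of any TSS, and its highest fold enrichment and widest peak were kept. The main TSS was the most upstream one among the best-ranked principal transcripts. Promoter sequences came from the RefSeq table of GRCm38 and the Yy1 stretch from the RefSeq genome. Motifs were chosen after the sequences had been seen. The genes and lists were chosen with earlier results of these data known. Named beyond the 9 genes were list genes marked in 1 line only, the highest of each list per line, genes sharing a peak with one of the 9 and the 5 nearest in pattern, and other genes were named after their values had been seen. The functions were tested on simulated peaks. Python 3.11.15, numpy 2.4.6, pandas 2.3.3 and matplotlib 3.10.9 were used.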

Additional observations from a re-analysis of the deposited data

How the results depend on the processing

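The 12 counts and medians described for the 9 genes and the 6 lists were recomputed under 8 other choices: a promoter window narrowed to 1000 bp or widened to 5000 bp, no peak under 10-fold, no peak short of the top IDR score (1000), the 230-238 list shortened to the length of the other, a summit required within the window, the most upstream TSS alone, and TSSs of coding transcripts alone. Widths were also summed over a gene's peaks. Of 99 recomputed values, 98 were within 1.5 times the value reported. The exception was the number of list genes marked in 1 line only with the most upstream TSS. It was 1 in place of 2, where fewer TSSs were used. Over all settings this number ranged from 1 to 3. It was 3, at the limit of 1.5 times, with the 5000 bp window, the 10-fold limit, the shortened list and the summit rule. With the 10-fold limit, Pttg1 of the cohesin list was marked in Scid.adh.2C2 only, its highest peak in 230-238 being 8.40-fold. The most upstream TSS alone also left 8 of the 9 genes marked in each line, Stag1 being lost. It lowered the fold enrichment of Ldb1 in Scid.adh.2C2 from 34.6 to 16.2, the lowest of the 8 genes there. The median fold enrichment of the 9 genes ranged from 26.3 to 28.6 in Scid.adh.2C2 and from 24.7 to 25.6 in 230-238, and the number of list genes marked ranged from 57 to 60 and from 58 to 63. The median width ranged from 3138 to 3281 bp in Scid.adh.2C2 and from 3254 to 4695 bp in 230-238. The upper values came from summed widths, so that the similar medians of the lines depend on taking the widest peak. No paired analysis was possible because each list combines both replicates, and for the same reason no replicate could be left out in turn. Differences in fold enrichment between the lines can include differences in depth, input and enrichment, which were not tested.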
